A study of Mus musculus with 6 samples.

Results

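The interferon-γ (IFNγ) inducible GTPases described here are 10 genes, 5 immunity-related GTPases (*Iigp1*, *Tgtp1*, *Igtp*, *Irgm1* and *Irgm2*) and 5 guanylate-binding proteins (*Gbp2*, *Gbp3*, *Gbp5*, *Gbp6* and *Gbp7*), out of 14097 genes measured by RNA-seq in colonic lamina propria (LP) macrophages (MΦs). They were chosen by name from these 2 gene families, *Iigp1* and *Tgtp1* because their normalized counts were higher in *Il10rb-/-* than in *Il10rb+/-* MΦs and the others with results of these libraries known. The differences between genotypes reported for them are therefore descriptions and carry no test. All 10 passed the low-value filter (50 normalized counts or more in any of the libraries), as did 11067 of the 14097 genes. For *Tgtp1* and *Gbp6* only *Il10rb-/-* libraries reached that level.

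P3/P4 MΦs (CD45+CD11b+CD11cintCD103-CD64+Ly6C-MHCII+) were sorted from untreated 129SvEv mice at 1, 3 and 12 weeks of age. At each age there was 1 library from mice lacking IL10Rβ, a subunit of the interleukin 10 receptor, in all cells (*Il10rb-/-*) and 1 from mice that keep an intact copy of the gene (*Il10rb+/-*, the control). Each library at 3 and 12 weeks came from a single mouse and each at 1 week from pooled colons, so no difference at any age has a replicate check, and mice cannot be told apart from genotype or age. The sorted fraction is a surface gate, within which the relative amounts of different MΦ states were free to vary.

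IFNγ, made mainly by T cells, NK cells and innate lymphoid cells, binds IFNGR1 and IFNGR2 and acts through the kinases JAK1 and JAK2 on genes with gamma-activated sites (GAS) or interferon-stimulated response elements (ISRE) in their promoters. Among the genes this switches on in MΦs are GTPases that assemble on the vacuoles of intracellular bacteria and parasites. The effector immunity-related GTPases (IRGs) *Iigp1* (Irga6) and *Tgtp1* (Irgb6) coat and disrupt such vacuoles, the regulators *Irgm1*, *Irgm2* and *Igtp* (Irgm3) keep the effectors inactive on the cell's own membranes, and the guanylate-binding proteins (GBPs) bind vacuoles and bacterial surfaces and promote inflammasome activation. IL10 restrains the activation of intestinal MΦs, which is why the genes were compared between mice with and without this subunit of its receptor. The paper states that IL10Rβ also serves in the receptors of IL22, IL26 and interferon-λ. The contrast between genotypes therefore does not isolate the loss of IL10 signalling.

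The 10 genes lie in a few clusters of GRCm38 (the assembly also called mm10). On chromosome 3 are *Gbp5* (ENSMUSG00000105504, 142493978 to 142522344), *Gbp7* (ENSMUSG00000040253, 142530342 to 142550149), *Gbp3* (ENSMUSG00000028268, 142560026 to 142573209) and *Gbp2* (ENSMUSG00000028270, 142620602 to 142638008), all on the plus strand. On chromosome 11 are *Irgm1* (ENSMUSG00000046879, 48861968 to 48871683) and *Tgtp1* (ENSMUSG00000078922, 48985327 to 48994172) on the minus strand, and *Igtp* (ENSMUSG00000078853, 58199556 to 58207591) and *Irgm2* (ENSMUSG00000069874, 58199618 to 58222782) on the plus strand, where the last 2 gene models overlap. *Gbp6* (ENSMUSG00000104713, 105270702 to 105293698, minus strand) is on chromosome 5 and *Iigp1* (ENSMUSG00000054072, 60376027 to 60392634, plus strand) on chromosome 18.

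Promoter sequences were read to show what these genes share apart from their counts. The RefSeq promoter table (GRCm38.p6, from 250 bases before to 50 bases after each annotated start site) held 8 of the 10 genes in 9 promoters, with *Gbp3* in 2. *Iigp1* and *Gbp6* were not among them. The ISRE core, a pair of GAAA half-sites with any 2 bases between them, searched on both strands, was found in 8 of these 8 genes and in 8 of the 9 promoters, against 3.44% of all 32851 promoters in the table. The GAS motif, spelled TTCNNNGAA and the same on both strands, was found in 5 of the 8 genes (*Tgtp1*, *Igtp*, *Irgm2*, *Gbp5* and *Gbp7*) against 8.30% of all promoters, and these 5 promoters held both motifs, as did 0.454% of all. The letters of both motifs were chosen after the members' promoters had been seen, and a match is a stretch of letters, not a site shown to bind a factor.

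The windows around the ISRE core are printed because they show its place and its neighbours in each promoter. Each is written 5′ to 3′ on the strand of the gene, with every base of an ISRE core match in capitals and, in *Tgtp1*, *Igtp* and *Irgm2*, also the GAS match that precedes it. The *Gbp5* window spans chr3:142496749-142496798, *Gbp7* chr3:142530263-142530312, *Gbp3* chr3:142559979-142560034, *Gbp2* chr3:142620584-142620633, *Irgm1* chr11:48871421-48871470, *Tgtp1* chr11:48992294-48992343, *Igtp* chr11:58199502-58199551 and *Irgm2* chr11:58214893-58214942.
Gbp5: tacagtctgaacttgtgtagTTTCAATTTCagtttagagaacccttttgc
Gbp7: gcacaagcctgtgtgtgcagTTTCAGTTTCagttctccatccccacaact
Gbp3: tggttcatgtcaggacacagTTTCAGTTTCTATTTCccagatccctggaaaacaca
Gbp2: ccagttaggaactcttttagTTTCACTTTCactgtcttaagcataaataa
Irgm1: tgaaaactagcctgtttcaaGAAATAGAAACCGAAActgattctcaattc
Tgtp1: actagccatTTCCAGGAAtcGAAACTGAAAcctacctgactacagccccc
Igtp: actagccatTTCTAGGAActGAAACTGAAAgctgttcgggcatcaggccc
Irgm2: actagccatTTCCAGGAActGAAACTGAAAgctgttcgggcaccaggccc

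In the 4 GBPs the core was read on the opposite strand, as TTTC repeats, and in the 4 IRGs on the strand of the gene. In *Gbp3* and *Irgm1* a pair of matches overlapped, which gives the longer runs of capitals. The match lay close to the start site in 7 of the 8 genes, its first base between position -77 (*Tgtp1*) and -30 (*Irgm1*), and farther away, from -165 to -156, in *Gbp5*. In *Tgtp1*, *Igtp* and *Irgm2* the GAS match ended 2 bases before the core. The windows of the overlapping genes *Igtp* and *Irgm2* were identical at 48 of 50 bases, and those of *Igtp* and *Tgtp1* at 34 of 50. Of the genes the RefSeq table held in the lists used below, the ISRE core was in 9 of 19 type I interferon-stimulated genes, 4 of 6 other GTPase relatives, 3 of 13 IFNγ signalling genes, 1 of 12 other IFNγ targets and 1 of 17 partner genes.

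**Figure D1:**
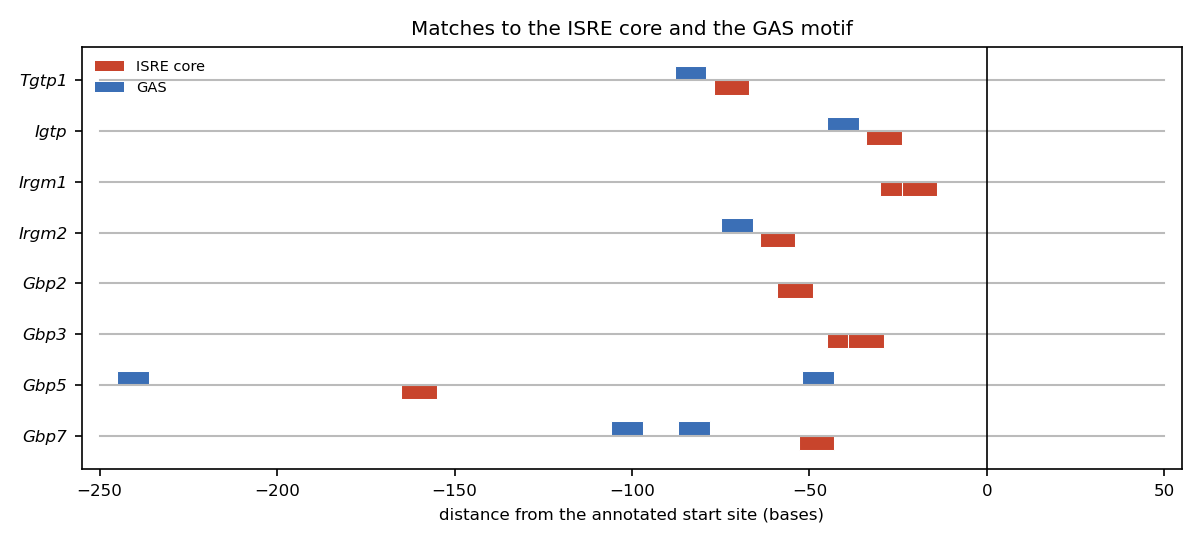
Matches to the ISRE core (red, below each line) and the GAS motif (blue, above each line) in the promoters of 8 GTPase genes, drawn by distance in bases from the annotated start site (0). The ISRE core lies within the 77 bases before the start site in every gene shown but *Gbp5*, and a GAS match directly precedes it in *Tgtp1*, *Igtp* and *Irgm2*.

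The values are normalized counts, the reads on a gene divided by the size factor of its library, with a count of 0 shown as 1. They are not scaled by gene length. The reads on the listed genes numbered between 6700337 (3-week *Il10rb+/-*) and 40754971 (12-week *Il10rb+/-*), and 1 read was worth between 0.473 and 2.43 normalized counts. The 95% intervals given with log2 ratios are exact (Clopper-Pearson), come from the reads and cover counting error only. The targeted gene *Il10rb* had between 8 and 43 reads in the libraries labelled *Il10rb-/-* and between 386 and 2341 in those labelled *Il10rb+/-*.

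The macrophage markers were abundant in every library, with 12 of 13 listed genes in the table and between 4.74% and 6.65% of the reads. The 12-week *Il10rb-/-* library stood apart, with lower values of some genes of resident MΦs (*Mrc1*, 12185 against 618; *Cx3cr1*, 8074 against 906; *C1qa*, 29971 against 7106 normalized counts in *Il10rb+/-* and *Il10rb-/-* MΦs) and higher values of *Ly6c2* (143 against 2611) and *Plac8* (1515 against 14515). Of the 12 macrophage markers 10 were lower in it than in the 12-week control, 6 of them over 3-fold. The other 2, *Fcgr1* and *H2-Ab1*, were higher, and *Csf1r* was close to its control (47225 against 46878). All 6 monocyte markers past the filter were higher. Among the 7 neutrophil markers the summed reads were 8 to 31 in the libraries of 1 and 3 weeks, 879 in the 12-week *Il10rb+/-* library and 8545 in the 12-week *Il10rb-/-* library, and *Ngp* and *Camp* were at 0 reads in all libraries but the last. The T cell gene *Cd3e* had 0, 1, 2, 12, 84 and 146 reads in the order *Il10rb+/-* then *Il10rb-/-* at 1, 3 and 12 weeks. In normalized counts, *Il10rb+/-* against *Il10rb-/-*, it was 4.87 against 10.6 at 3 weeks and 39.7 against 93.0 at 12 weeks. What part of any GTPase value came from other cells or from another mix of MΦ states was not tested, and in sorted bulk RNA fewer cells of a type and less RNA per cell cannot be told apart.

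At 1 week the GTPases were not higher in *Il10rb-/-* MΦs. 9 of the 10 had fewer normalized counts in the *Il10rb-/-* library, where 53.7% of all 11067 genes did, and *Iigp1* had more. Among the 9 was *Tgtp1*, with 2 reads in the control and 0 in the *Il10rb-/-* library, too few for a direction. None was over 3-fold higher, against 2.75% of all genes, and none over 3-fold lower, against 0.75%. The log2 ratios (*Il10rb-/-* over *Il10rb+/-*) had a median of -0.61 (-0.53 over the 9 genes without *Tgtp1*) and ran from -1.18 to 0.31. The interval lay below 0 for 6 of the 10 genes, as it did for 30.9% of all genes. At 3 weeks all 10 were higher in *Il10rb-/-* MΦs (52.1% of all genes), with 5 over 3-fold (1.34% of all genes). The median log2 ratio was 1.37 over all 10. The 9 genes with reads in both libraries ranged from 0.40 to 4.18. At 12 weeks all 10 were higher again (52% of all genes), with 8 over 3-fold (4.03% of all genes), a median of 3.80 and a range of 1.21 to 4.83. Over all genes the median log2 ratio was -0.04, 0.02 and 0.04 at the 3 ages. The interval lay above 0 for all 10 genes at 3 and at 12 weeks, and for 20.6% and 43.3% of all genes. Because the genes were selected on this contrast, nothing is read from these counts.

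**Figure D2:**
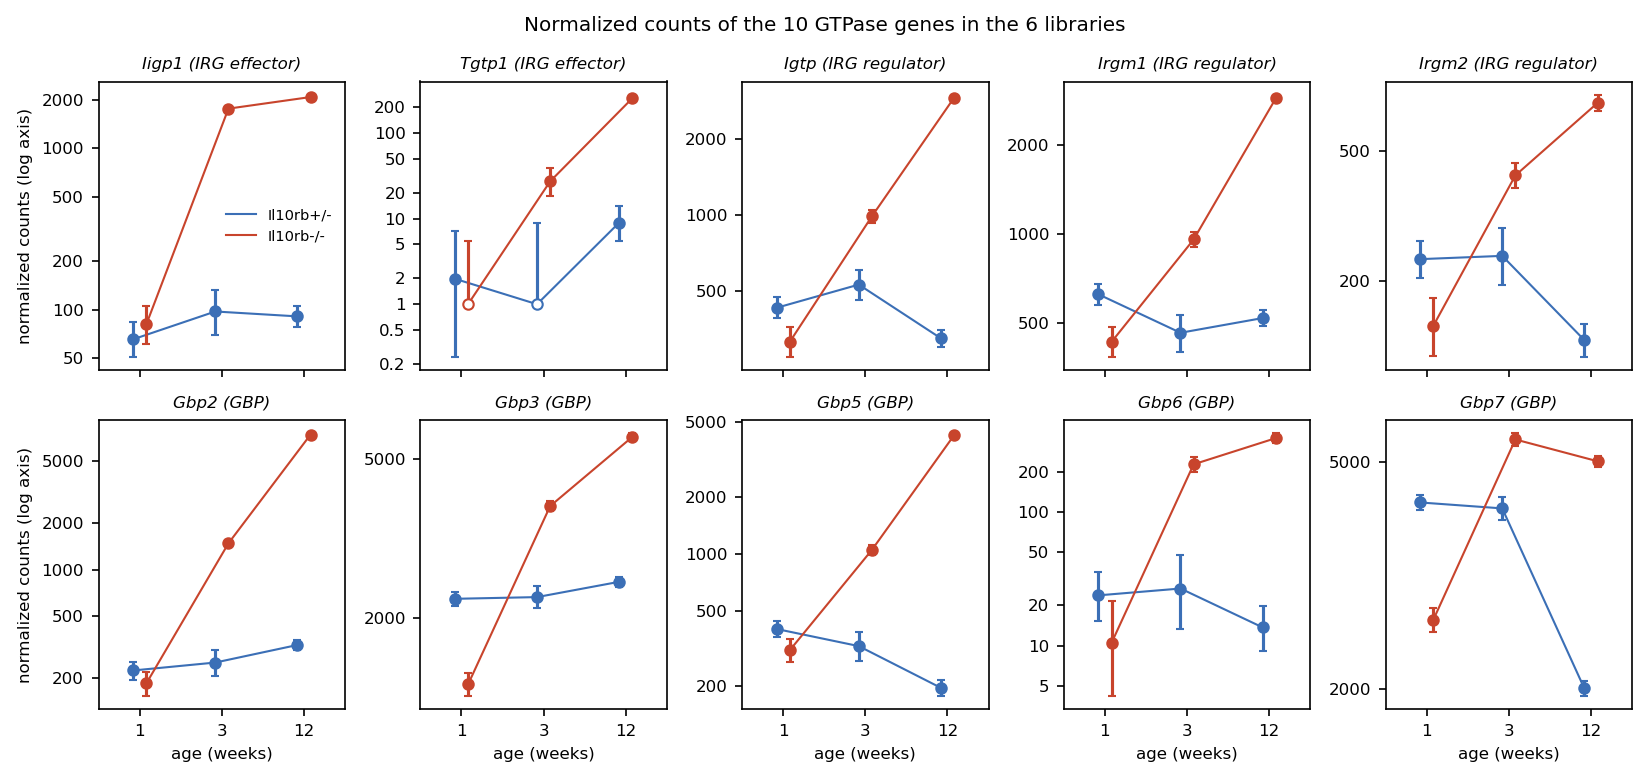
Normalized counts (log axis, each panel on its own scale) of the 10 GTPase genes against age in weeks, 1 point per library, in *Il10rb+/-* (blue) and *Il10rb-/-* (red) MΦs, with exact 95% Poisson intervals of the reads as bars and open circles for 0 reads (shown as 1). The red points lie at or below the blue ones at 1 week for every gene except *Iigp1* and above them at 3 and 12 weeks in all 10 panels.

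The effector IRGs had low values in control MΦs and large ratios at both later ages. *Iigp1*, a well-studied vacuole-coating IRG, had 65.4, 97.3 and 90.8 normalized counts in *Il10rb+/-* MΦs at 1, 3 and 12 weeks and 80.9, 1767 and 2085 in *Il10rb-/-* MΦs. The control values lay close together, while the 3- and 12-week *Il10rb-/-* values stood apart from all 4 others. The log2 ratio of *Iigp1* came to 0.31 (-0.24 to 0.85) in the 1-week pair, 4.18 (3.73 to 4.67) in the 3-week pair and 4.52 (4.31 to 4.74) in the 12-week pair, the last equal to 23.0-fold. Most of the difference was already there at 3 weeks, as the 12-week *Il10rb-/-* library had 1.18-fold the 3-week value (log2 0.24, 0.16 to 0.32).

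*Tgtp1* was close to undetected outside the older *Il10rb-/-* libraries. It had 2, 0 and 19 reads in *Il10rb+/-* MΦs and 0, 31 and 400 reads in *Il10rb-/-* MΦs, which are 8.98 and 254.7 normalized counts at 12 weeks. With at most 2 reads in either library no ratio is given for 1 week. The 3-week value was at least 3.73-fold higher in *Il10rb-/-* MΦs, counted against a floor of 3 reads in the *Il10rb+/-* library, and the 12-week value was 28.4-fold higher (log2 4.83, 4.16 to 5.57). Of all 75-base stretches of its transcripts, 77.2% also occur in another gene, mostly *Tgtp2*, its near-identical neighbour, so the division of reads between the pair is uncertain. *Tgtp2* itself had 20, 16 and 63 reads in controls and 9, 291 and 860 in *Il10rb-/-* MΦs. In normalized counts it was 6.57-fold higher in *Il10rb-/-* MΦs at 3 weeks and 18.4-fold at 12 weeks.

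The regulator IRGs had higher levels than the effectors in control MΦs, also per kilobase (below), and smaller ratios between genotypes at 3 and 12 weeks. Both effectors were chosen because their counts were higher in *Il10rb-/-* MΦs. The contrast in ratios between effectors and regulators was therefore set in part by that choice, and nothing is read from it. *Irgm1*, which acts on membranes of the Golgi, lysosomes and mitochondria, had 627, 465 and 521 normalized counts in *Il10rb+/-* MΦs and 433, 958 and 2864 in *Il10rb-/-* MΦs. *Igtp* had 427, 528 and 323 in *Il10rb+/-* and 313, 985 and 2905 in *Il10rb-/-* MΦs. *Irgm2* had 233, 238 and 131 in *Il10rb+/-* and 145, 421 and 703 in *Il10rb-/-* MΦs. In all 3 genes the 1-week *Il10rb-/-* value was below its control and the order was reversed at 3 and 12 weeks.

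At 3 weeks the regulators' log2 ratios lay close together, at 1.04 (0.82 to 1.27) for *Irgm1*, 0.90 (0.69 to 1.12) for *Igtp* and 0.82 (0.50 to 1.15) for *Irgm2*, and none was over 3-fold. At 12 weeks all 3 were, with 8.98-fold for *Igtp*, 5.50-fold for *Irgm1* and 5.35-fold for *Irgm2*. The interval of *Igtp* (log2 3.05 to 3.29) lay above those of *Irgm1* (2.36 to 2.56) and *Irgm2* (2.23 to 2.61), which overlapped. The gene models of *Igtp* and *Irgm2* overlap on the same strand. They share 7.80% and 4.78% of their 75-base stretches with other genes, each mostly with the other. Part of their reads could therefore have gone to the other gene.

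The GBPs fell into genes that were low in control MΦs and far higher in older *Il10rb-/-* MΦs, and genes that were abundant in every library. *Gbp2*, a GBP recruited to vacuoles and bacteria, had 225, 253 and 328 normalized counts in *Il10rb+/-* and 186, 1474 and 7353 in *Il10rb-/-* MΦs. *Gbp5*, known for its part in inflammasome activation, had 402, 326 and 196 in *Il10rb+/-* and 310, 1052 and 4243 in *Il10rb-/-* MΦs. *Gbp6* had 23.8, 26.8 and 13.7 in *Il10rb+/-* and 10.5, 227 and 356 in *Il10rb-/-* MΦs. For each of the 3 the *Il10rb-/-* value was the higher at both later ages, and the control values covered a narrow range beside it.

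Among them *Gbp6* had the largest log2 ratio at 3 weeks (3.08, 2.22 to 4.10), *Gbp2* the next (2.54, 2.26 to 2.84) and *Gbp5* the smallest (1.69, 1.43 to 1.96). At 12 weeks these genes came to similar ratios, 26.0-fold for *Gbp6*, 22.4-fold for *Gbp2* and 21.6-fold for *Gbp5*, with overlapping intervals (log2 4.16 to 5.29, 4.38 to 4.60 and 4.29 to 4.58). *Gbp6* rested on 11 control reads at 3 weeks and 29 at 12 weeks, and 67.3% of its 75-base stretches also occur in another gene, mostly a predicted gene, *Gm43302*, with *Gbp10* and *Gbp11*, so that its counts are uncertain. For *Gbp2* and *Gbp5* the shared part was 0.955% and 0.578%.

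*Gbp3* and *Gbp7* were the genes with the smallest ratios. *Gbp3* had 2229, 2251 and 2458 normalized counts in *Il10rb+/-* and 1360, 3805 and 5669 in *Il10rb-/-* MΦs. *Gbp7*, which is needed for the transport of oxidase components to vacuoles, had 4253, 4152 and 2007 in *Il10rb+/-* and 2645, 5484 and 5023 in *Il10rb-/-* MΦs. Their ratios were under 3-fold at every age, on the log2 scale 0.76 (0.65 to 0.86) and 0.40 (0.32 to 0.48) in 3-week MΦs, then 1.21 (1.16 to 1.25) and 1.32 (1.27 to 1.38) in 12-week MΦs. *Gbp7* is the only member whose 12-week ratio came with a lower control value as well as a lower *Il10rb-/-* value than at 3 weeks. Around the threshold, *Gbp5* at 3 weeks was just over 3-fold (3.23) and *Irgm1* the nearest below it (2.06), and at 12 weeks *Irgm2* was the lowest above (5.35) and *Gbp7* the highest below (2.50).

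**Figure D3:**
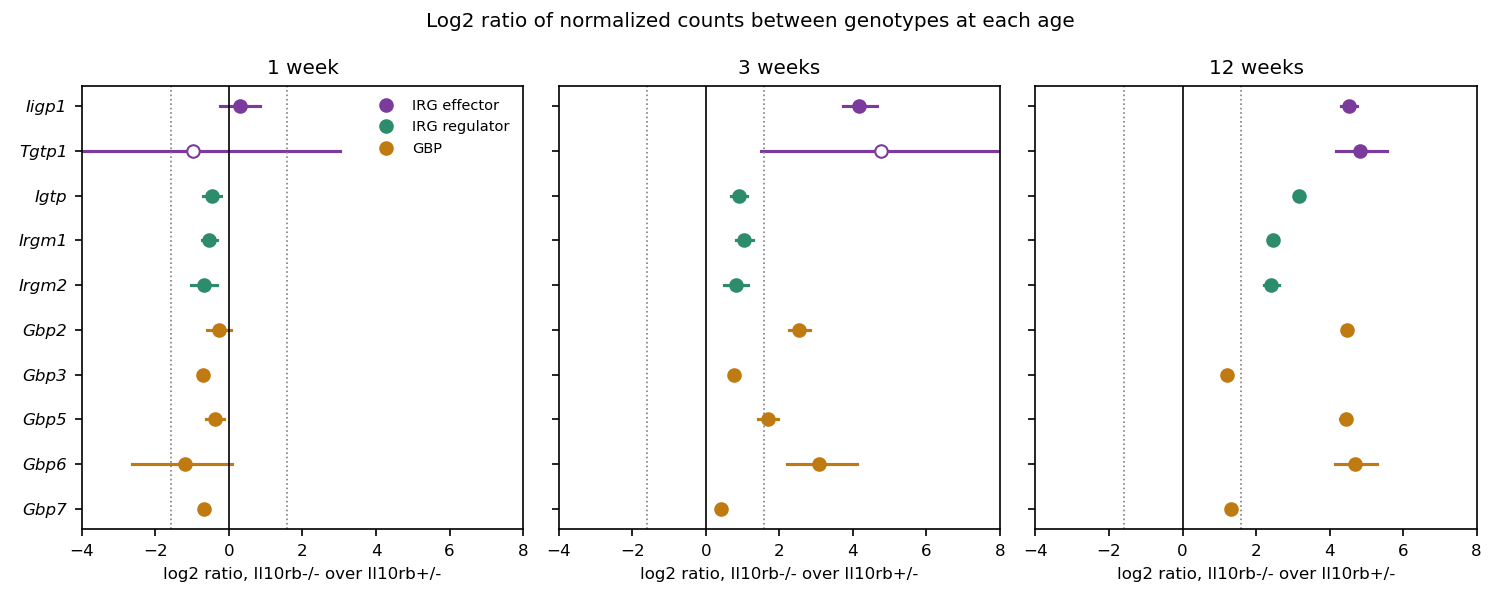
Log2 ratio of normalized counts, *Il10rb-/-* over *Il10rb+/-* MΦs, for each GTPase gene at 1, 3 and 12 weeks, with exact 95% counting intervals as bars (cut at the frame) and dotted lines at 3-fold in either direction. Open circles are ratios in which 1 library had 0 reads. Most points lie left of 0 at 1 week and all lie right of it later, with *Gbp3* and *Gbp7* nearest to 0 at 12 weeks.

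Read along age within a genotype, most of the GTPases differed little between control libraries. From 1 to 3 weeks in *Il10rb+/-* MΦs 6 were higher and 3 lower, where 45.2% of all genes were higher and 54.5% lower. None was over 3-fold higher (5.2% of all genes), with log2 ratios from -0.43 to 0.57, and *Tgtp1* had too few reads for a ratio. From 3 to 12 weeks 4 were higher and 6 lower, near the shares of all genes (50.7% higher and 49.2% lower). With a count of 0 shown as 1 only *Tgtp1* was past 3-fold (5.41% of all genes), but its 0 and 19 reads give at least 1.23-fold over the floor of 3 reads. The others ran from -1.05 (*Gbp7*) to 0.37 (*Gbp2*). *Gbp7*, *Gbp5*, *Irgm2* and *Igtp* had log2 ratios of -1.05, -0.73, -0.86 and -0.71, each with an interval below 0. The share of all genes with such an interval in this step was not computed, so nothing is read from their number.

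In *Il10rb-/-* MΦs all 10 were higher at 3 than at 1 week (50.9% of all genes), 6 of them over 3-fold (3.88% of all genes), with a median log2 ratio of 1.71. The largest were *Iigp1* (21.8-fold), *Gbp6* (21.6-fold, from 7 reads) and *Gbp2* (7.94-fold), and *Tgtp1* was at least 6.07-fold higher. From 3 to 12 weeks 9 of 10 were higher (52.8% of all genes) and 3 over 3-fold (5.75% of all genes), namely *Tgtp1* (9.34-fold), *Gbp2* (4.99-fold) and *Gbp5* (4.03-fold). *Irgm1* (2.99-fold) and *Igtp* (2.95-fold) were just under that threshold. The later step was small for *Iigp1* (1.18-fold), *Gbp3* (1.49-fold), *Gbp6* (1.57-fold) and *Irgm2* (1.67-fold), and *Gbp7* was lower (log2 -0.13, -0.17 to -0.08). The 3-week *Il10rb-/-* value was most of the 12-week one for *Iigp1*, *Gbp3*, *Gbp6* and *Irgm2*, and above it for *Gbp7*. It was a small part for *Tgtp1*, *Gbp2* and *Gbp5*, with *Irgm1* and *Igtp* in between. Such shares leave out the 1-week level and the controls. The log2 ratios between genotypes at 3 and 12 weeks were 0.40 and 1.32 for *Gbp7* and 0.82 and 2.42 for *Irgm2*. For *Iigp1* they were 4.18 and 4.52. When a gene rose is therefore not read from the shares. The age steps share the 3-week library, and each compares 1 library with 1 other.

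Per kilobase of exon, the scale on which levels of different genes can be set side by side, *Gbp7* and *Gbp3* led in control MΦs. At 1 week they had 757 and 683 normalized counts per kilobase, at 3 weeks 739 and 689, and at 12 weeks 357 and 753, and their counting intervals overlapped at 3 weeks. *Igtp* was the third at every age in *Il10rb+/-* MΦs, with 211, 261 and 160. *Irgm1* and *Gbp2* followed, and their intervals overlapped at 1 and at 3 weeks. *Irgm2* and *Gbp5* came next with overlapping intervals at all 3 ages (at 3 weeks *Irgm1* and *Irgm2* overlapped too), then *Iigp1* with 11.2, 16.7 and 15.6. *Gbp6* and *Tgtp1* were the lowest, at no more than 4.50, and could not be ordered at 3 and 12 weeks. As 67.3% and 77.2% of their 75-base stretches also occur in other genes, their counts, and so their levels per kilobase, are uncertain beyond these intervals.

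The order was another in older *Il10rb-/-* MΦs. At 1 week it began as in controls, with *Gbp7* (471 per kilobase), *Gbp3* (417) and *Igtp* (155). At 3 weeks *Gbp3* (1165) was ahead of *Gbp7* (977) and *Gbp2* (586), and *Iigp1* (303) was ahead of *Irgm1* (165) and *Gbp5* (158), whose intervals overlapped. At 12 weeks *Gbp2* led with 2923, followed by *Gbp3* (1736), *Igtp* (1437), *Gbp7* (895) and *Gbp5* (639), and no neighbouring intervals overlapped. *Gbp7* and *Gbp3* together held 76.4%, 76.8% and 73.5% of the members' summed normalized counts in *Il10rb+/-* MΦs and 73.0%, 57.3% and 34.0% in *Il10rb-/-* MΦs, while *Gbp2* went from 3.39% at 1 week to 23.4% at 12 weeks in the latter. The summed counts of the 10 genes were 8486, 8338 and 6079 in *Il10rb+/-* and 5484, 16200 and 31456 in *Il10rb-/-* MΦs. The lengths are those of all annotated exons, and a shorter isoform in use would raise the level of its gene.

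**Figure D4:**
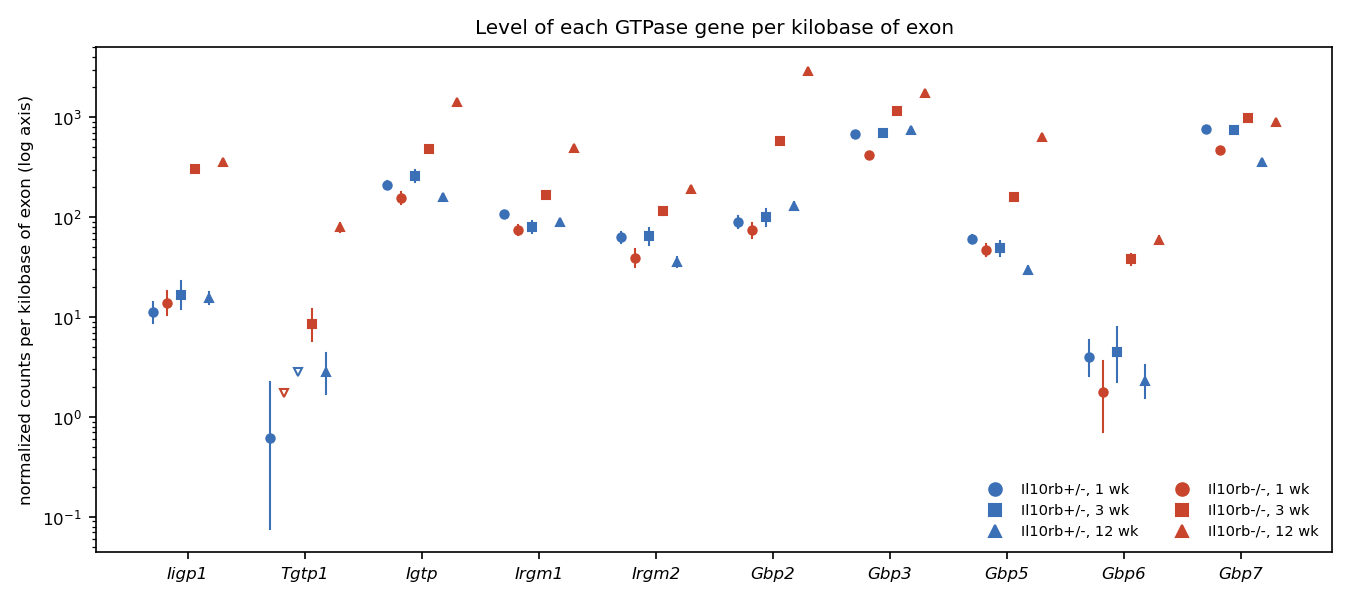
Normalized counts per kilobase of annotated exon (log axis) of the 10 GTPase genes in each library, by genotype (colour) and age (circle, square and triangle for 1, 3 and 12 weeks), with exact 95% Poisson intervals as bars. Open triangles mark the upper limit where *Tgtp1* had 0 reads. *Gbp2* in 12-week *Il10rb-/-* MΦs is the highest point, at 2923, and the blue points of *Gbp3* and *Gbp7* are the highest of the controls.

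Other GTPases, most of them of the same families, came from a list of 18, with 14 in the table and 10 past the filter. The list also held *Mx1* and *Mx2*, which belong to neither family. How uniform these genes were is not set against the members, which were chosen with results of these libraries known. At 1 week 9 of the 10 were lower in *Il10rb-/-* MΦs (median log2 ratio -0.65, or -0.48 with *Gbp11* at its floor), at 3 weeks 8 were higher (0.80) and at 12 weeks 7 (1.37). *Gbp4* was the clearest case of a reversal, with 1725, 1528 and 1124 normalized counts in *Il10rb+/-* and 536, 4115 and 5932 in *Il10rb-/-* MΦs, or log2 ratios of -1.69 (-1.85 to -1.52), 1.43 (1.31 to 1.55) and 2.40 (2.34 to 2.47). *Gbp2b* (-0.94, 1.07 and 1.48), *Gbp8* (-0.75, 0.52 and 1.25) and *Gbp9* (-0.25, 0.46 and 1.11) had the same order of signs. *Gm4951*, an IRG gene, had log2 ratios of 0.27 (-0.77 to 1.30), 2.34 (1.24 to 3.69) and 2.43 (1.81 to 3.10), and *Gbp11* had 6, 7 and 12 reads in control and 0, 57 and 74 in *Il10rb-/-* MΦs. In normalized counts *Gbp11* was 2.94-fold higher in *Il10rb-/-* MΦs at 3 weeks and 8.31-fold at 12 weeks. The antiviral dynamin-like GTPases *Mx1* (-0.27, 0.40 and -0.15) and *Mx2* (-0.41, -0.04 and -0.32) and the predicted gene *Gm5431* (-1.12, -0.47 and -1.21) did not show higher values at 12 weeks.

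Of the 15 genes of IFNγ signalling, all past the filter, 6 were higher in *Il10rb-/-* MΦs at 1 week, 11 at 3 weeks and 15 at 12 weeks, with median log2 ratios of -0.14, 0.25 and 0.64. The ligand gene *Ifng* had 2, 3 and 51 reads in control and 0, 4 and 795 in *Il10rb-/-* MΦs, a difference of 4.39 on the log2 scale at 12 weeks (3.98 to 4.83). At 3 weeks the 4 reads against 3 left the ratio undetermined at this depth (log2 -1.05, -3.62 to 1.72). Of the 6 T and NK cell markers past the filter, 5 were higher in *Il10rb-/-* MΦs at 12 weeks, among them *Cd3g* (55 and 242 reads) and *Nkg7* (44 and 179), and *Cd4* was lower (3621 and 330). In the 1-week control library *Cd4* had 3255 reads where *Cd3e* and *Cd3g* had 0, so nothing about T cells is read from *Cd4*. Of the markers under the filter, *Cd3d*, *Cd8a*, *Gzma* and *Thy1* were higher, and *Prf1* (37 and 1 reads), *Cd8b1* (26 and 4) and *Klrb1c* (12 and 2) were lower. By the mean of the 3- and 12-week log2 ratios, which orders each of the lists here and below, the receptor subunit *Ifngr2* (-0.24, 0.02 and 0.31), the inhibitor *Socs3* (0.10, -0.28 and 0.33) and the kinase *Jak1* (-0.28, -0.09 and 0.12) were the lowest, and *Stat2* had -0.71, 0.41 and 1.33.

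Of 22 other IFNγ targets 20 passed the filter, and 9, 20 and 19 of them were higher in *Il10rb-/-* MΦs at 1, 3 and 12 weeks, with medians of -0.03, 0.93 and 1.84. At 3 and 12 weeks 7 and 14 genes were over 3-fold, and at 1 week none was once *Upp1*, with 0 and 5 reads, is set against the floor of 3 reads (at least 2.52-fold). The highest by the mean of both later ages were *Nos2* (inducible nitric oxide synthase), *Irg1* (itaconate synthesis) and *Upp1* (uridine phosphorylase). *Irg1* had 46.6, 207 and 823 normalized counts in *Il10rb+/-* and 121, 2109 and 29911 in *Il10rb-/-* MΦs, and it was higher at 1 week too (log2 1.38, 0.84 to 1.93). The lowest were *Ciita*, the MHC class II activator (-0.18, 0.22 and 0.72), *Cxcl10* (-0.81, 0.36 and 0.48) and *Icam1* (-0.47, 0.08 and -1.07). 

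The 23 type I interferon-stimulated genes, a list that includes the receptor subunits and *Ifnb1*, had the same sign of median as the GTPases at each age. At 1 week 20 of 23 were lower in *Il10rb-/-* MΦs, 4 over 3-fold, with a median of -0.63. *Ifnb1*, which encodes interferon-β, had 1557, 786 and 1233 normalized counts in *Il10rb+/-* and 309, 507 and 101 in *Il10rb-/-* MΦs, lower at every age (log2 -2.33, -0.63 and -3.61). *Ifit1* (-2.59, 0.10 and -1.29) and *Oasl1* (-1.02, 0.88 and -1.58) were lower at 1 and 12 weeks. At 3 weeks 20 of 23 were higher (median 0.67) and at 12 weeks 17 (0.89). The highest by the mean of both ages were *Zbp1* (-0.45, 0.98 and 3.14), *Rsad2* (-1.81, 1.66 and 1.95) and *Oas3* (-0.08, 1.09 and 2.38). A gene of this list can answer both interferon types, and the data do not tell them apart.

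The 21 genes for partners of the GTPases, which conjugate ATG8 proteins, mark vacuoles with ubiquitin or form inflammasomes, had median log2 ratios of 0.14, 0.21 and 0.33 at 1, 3 and 12 weeks, and none was over 3-fold in either direction at any age. The highest by the mean of the 3- and 12-week ratios were *Traf6* (-0.23, 0.59 and 1.45), *Gsdmd*, the pore-forming gasdermin D (0.33, 0.46 and 1.40), and *Rnf213* (-0.68, 0.64 and 0.99). The lowest were *Lgals3*, which was also the highest of them at 1 week (0.90, 0.21 and -0.91), *Trim21* (-0.48, -0.18 and -0.29) and *Map1lc3a* (0.44, -0.19 and 0.02).

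**Figure D5:**
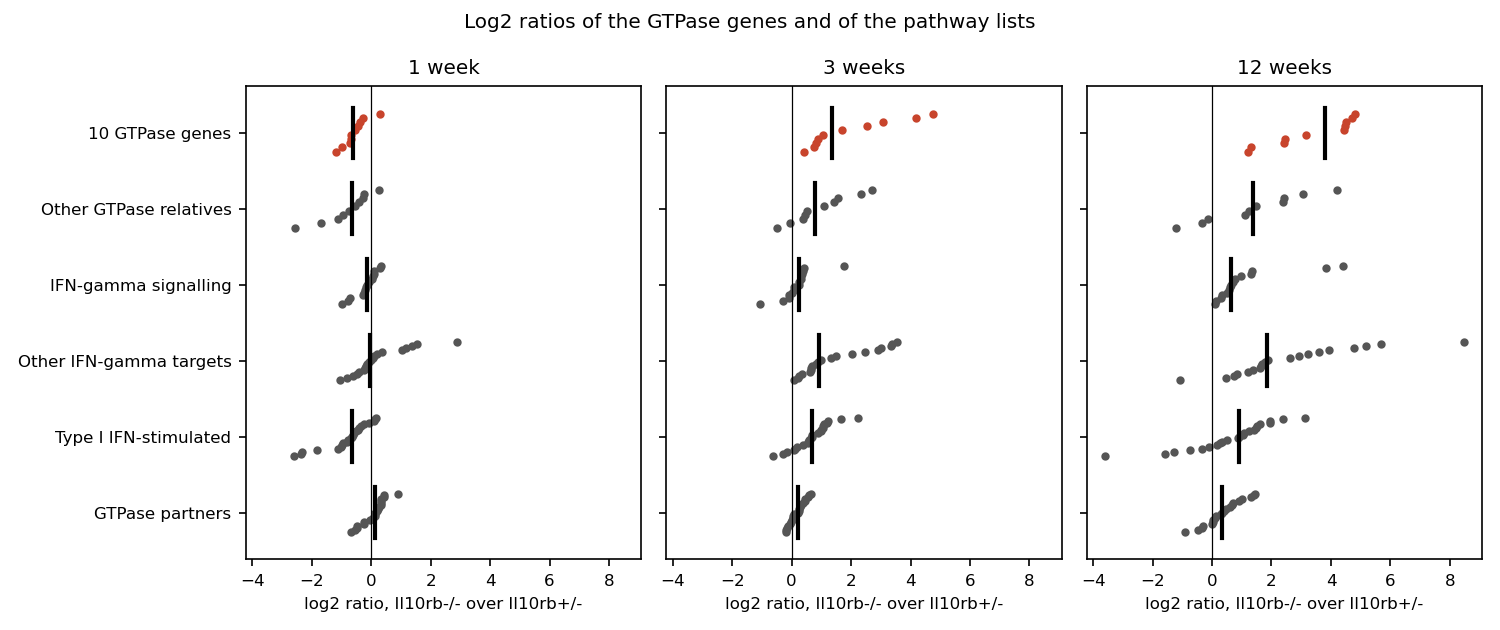
Log2 ratio of normalized counts, *Il10rb-/-* over *Il10rb+/-* MΦs, for the 10 GTPase genes (red) and for the genes past the filter in 5 related lists (grey) at 1, 3 and 12 weeks, 1 point per gene, with a black bar at each median. The medians of the GTPases are -0.61, 1.37 and 3.80, and those of their partners stay between 0.14 and 0.33.

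The markers of other cells moved in several directions between the 12-week libraries. Median log2 ratios over the genes past the filter were 6.44 for neutrophil (5 genes), 2.87 for monocyte (6), 1.38 for epithelial (11), 1.25 for T and NK cell (6), 1.16 for dendritic cell (5), -1.43 for macrophage (12), -1.83 for eosinophil (2), -2.34 for endothelial and stromal (9) and -2.84 for B and plasma cell markers (7). At 3 weeks, when all 10 GTPases were already higher in *Il10rb-/-* MΦs, the medians were between -1.03 (B and plasma cell) and 0.73 (T and NK cell). The 7 neutrophil markers then summed to 14 reads in the control and 31 in the *Il10rb-/-* library, or 34.1 and 27.3 normalized counts. Of the 6 monocyte markers past the filter 3 were higher and 3 lower, among them *Ly6c2* at 9.73 and 285 normalized counts, *Plac8* at 513 and 1706, *Ccr2* at 20629 and 19378, *Chil3* at 97.3 and 26.4 and *Vcan* at 17.0 and 9.67. Of the T and NK cell markers 5 of 6 were higher, *Il2rb* the most (0 and 69 reads), and of the dendritic cell markers 2 of 5, *Ccr7* the most (1029 and 3160 normalized counts). What part these cells had in the 3-week GTPase values was not tested. The 1-week medians ran from -0.94 (B and plasma cell) to 2.02 (epithelial cell).

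Among the genes most like the GTPases over the 6 libraries were *Abcc4*, *Zbp1*, *Irf8*, *Il18bp*, *Trappc10*, *Agtrap*, *H2-Q10*, *Tap1* and *Wars*, by Pearson correlation of log2 (normalized count plus 10) with the members' mean profile, between 0.992 (*Abcc4*) and 0.983 (*Wars*). The members themselves ranged from 0.700 (*Gbp7*) to 0.987 (*Gbp2*). These values describe 6 libraries, share the same size factors and say nothing of size: *Tap1* went from 1257 in 1-week *Il10rb+/-* to 9842 in 12-week *Il10rb-/-* MΦs, *Il18bp*, the IL18 antagonist, from 129 to 1142, but *Trappc10* only from 479 to 649 normalized counts.

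In a fit of all 6 libraries on genotype and age, limma with Benjamini-Hochberg adjustment called 0 of 11067 genes (0%), with 853 at an unadjusted p under 0.05 and a smallest adjusted p of 0.0616. The error of this test is the variation of the genotype difference between ages, which for the GTPases spanned a change of sign, and it was not used for single members.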

How the data were processed

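RNA-seq of sorted colonic P3/P4 MΦs gave 6 libraries, 1 per genotype and age, and samples were assigned by the labelled genotype and age. The authors trimmed single-end 75-base reads with Trim Galore, aligned them to mm10 with TopHat, counted reads per gene with HTSeq and divided by DESeq size factors. Versions, annotation and strand setting are not given in the sources used here. The deposited values are thus a normalized signal per gene, with 0 shown as 1. The labels give 3–5 pooled mice at 1 week where the study's text gives 4–5, and name a SmartSeq kit, where the text names oligo dT beads and no library kit.

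Reads per gene were recovered from the step between values, of which, leaving out those shown as 1, 100% in every library were multiples within 0.01 reads. Ratios use the deposited values with no further pseudocount. Each 95% interval is a Clopper-Pearson one on the split of reads between the libraries compared. Where 1 library held no reads and the other more than 3, 3 reads served as the floor for a bound on the ratio. Where both held 3 reads or fewer, no such bound was computed. The filter (50 normalized counts in any library) and the 3-fold threshold are the study's. With 1 library per genotype and age no test was made at any age. The pooled fit used limma 3.58.1 (R 4.3.3) on log2 (value + 1) with age as a factor over all 6 libraries. It had moderated variances with a trend, and Benjamini-Hochberg adjustment at 0.05. The fit was also run on simulated data in which the genotype difference was the same at all ages. That setting differs from these data, so the run does not tell how many changed genes the fit would find here. Python 3.11.15 with scipy 1.17.1, numpy 2.4.6 and pandas 2.3.3 was used for the rest.

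Coordinates and exon lengths are from GENCODE M21 (GRCm38), in which 14085 of 14097 genes were found, and promoters from RefSeq (GRCm38.p6). The members and the gene lists were chosen with earlier results of these data known. All 10 members are named. Of the related lists, the counts are given and the 3 genes with the highest and the 3 with the lowest mean of the 3- and 12-week log2 ratios are named, all 10 for the other relatives, except an item that is not reported here. Other genes, markers among them, were named after their values were seen. Alternatives were scaling by total reads or by TMM factors (coded for this work), pseudocounts of 1 and 10, a 2-fold threshold, other filters and, for limma, leaving out each library.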

Additional observations from a re-analysis of the deposited data

Results flagged for a closer look

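6 members had a log2 ratio between genotypes (*Il10rb-/-* over *Il10rb+/-*) with a counting interval below 0 at 1 week and above 0 at 3 and at 12 weeks, so that the 1-week libraries went the opposite way to the older ones. Over all 11067 genes the interval lay below 0 for 30.9% at 1 week, and above 0 for 20.6% at 3 and 43.3% at 12 weeks. The share of all genes with the reversal itself was not computed. The members were chosen with these results known, so the reversal is not shown to be particular to them. The 1-week values were -0.45 for *Igtp*, -0.53 for *Irgm1*, -0.68 for *Irgm2*, -0.71 for *Gbp3*, -0.37 for *Gbp5* and -0.69 for *Gbp7*. With 1 library per genotype and age the difference between ages was not tested. At 1 week the *Il10rb-/-* library had 9892762 reads on the listed genes and the *Il10rb+/-* library 14952689, both from pooled mice, and all epithelial marker genes past the filter, 11 of 11, were higher in the *Il10rb-/-* library. Their part in the 1-week values was not tested.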

How the results depend on the processing

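Without replicate libraries the settings below show only how the values depend on scaling and thresholds. Of the members' own log2 ratios, 102 of 112 values under another scaling or pseudocount stayed inside the counting interval and none changed sign. Left out are 8 values of *Tgtp1* at 1 and 3 weeks, where a library had 0 reads and the interval is open, and its 3-week log2 ratio moved from 4.77 to 1.90 with a pseudocount of 10. The 10 that left the interval were all at 12 weeks, 8 of them under scaling by total reads and 2 with a pseudocount of 10. The median at 12 weeks became 3.58 when scaled by total reads and 3.46 with a pseudocount of 10. At 3 weeks 3 members were over 3-fold among those at 50 normalized counts in both libraries, which leaves out *Tgtp1* and *Gbp6*, and at 12 weeks 6 in place of 8. In *Il10rb+/-* MΦs from 3 to 12 weeks, 0 members were over 3-fold with a pseudocount of 10. At a 2-fold threshold 10 members were higher in *Il10rb-/-* MΦs at 3 than at 1 week and 5 at 12 than at 3 weeks, and with scaling by total reads 4 in place of 6 were over 3-fold higher at 3 than at 1 week. The shares of all genes at these other thresholds, filters and scalings were not computed, so nothing is read from these counts of members. Scaling by total reads shifted the median gene by -0.37 (log2) in the 12-week *Il10rb-/-* library and by 0.23 in both 1-week libraries. The limma fit across ages called 1 gene with a pseudocount of 10 and 0 when scaled by total reads or without a filter. Leaving out 1 library called between 0 and 74 genes, 0 without the 3-week *Il10rb+/-*, 1 without the 3-week *Il10rb-/-*, 18 without either 1-week library, 63 without the 12-week *Il10rb-/-* and 74 without the 12-week *Il10rb+/-* library. The count models edgeR and DESeq2, listed as alternatives, were not run, since the deposited values are normalized and show 0 as 1. No paired analysis was possible because each group holds 1 library and no replicate numbers are shared. The limma fit compares the genotypes within ages.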
